A study of Mus musculus with 10 samples.

Results

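The SLC1, SLC3, SLC7, SLC36, SLC38 and SLC43 families hold most of the carriers that move amino acids across the plasma membrane and out of lysosomes. Here they are described in tumour-associated macrophages. Members were taken by name, as every gene whose symbol starts with Slc1a, Slc3a, Slc7a, Slc36a, Slc38a or Slc43a, which gave 43 of the 21938 genes listed for each library. Of these, 22 were expressed, meaning at least 10 sequencing reads in at least 3 libraries, and 21 were not. One of the expressed genes, Slc7a6os, carries the prefix because it lies next to Slc7a6 and is not a transporter by its name.

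Macrophages in tumours take up arginine, glutamine, cystine and branched-chain amino acids that tumour cells and lymphocytes also draw on. Arginine enters through the cationic amino acid transporters Slc7a1 and Slc7a2 and is then split by arginase or oxidised by nitric oxide synthase. Several exchangers of the SLC7 family work as light chains bound to the heavy chain Slc3a2, also called CD98 or 4F2hc, which carries them to the cell surface. On lysosomes, Slc38a9 reports arginine to the growth kinase mTORC1, and carriers of the SLC36 and SLC38 families release amino acids from digested cargo such as engulfed cells.

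RNA was sequenced from macrophages sorted by flow cytometry out of mammary tumours of C57BL/6 mice, 5 weeks after PyMT tumour cells had been placed in 2 mammary glands. The 3 libraries called Control came from WT mice with WT tumour cells. The 4 libraries called Mertk KO came from mice lacking Mertk, a receptor for engulfing dying cells, in macrophages only and carrying WT tumour cells. The 3 libraries called Ptdss1 knockdown came from WT mice whose tumour cells had reduced Ptdss1, a synthase of the lipid phosphatidylserine that marks dying cells. Every group carried PyMT tumours, so no group shows macrophages without a tumour. The labels name neither the promoter behind the deletion nor the exons removed, give no age or sex, and do not say that the libraries of a group came from separate mice. P-values therefore measure the spread between these libraries, which may be partly technical.

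Libraries held between 10292592 and 25815071 reads. Mertk KO below means the libraries labelled so: the Mertk level ranged from 8.95 to 10.63 in them and from 9.26 to 10.97 in Control, on the log2(normalised reads + 1) scale used throughout, so Mertk reads did not separate these groups. Since the knockdown was made in tumour cells, Ptdss1 reads of the macrophages check no label. All 10 macrophage markers, among them Csf1r, Adgre1 and C1qa, had reads in every library, with a summed level of 18.61 to 19.57. Ptdss1 knockdown replicate 1 stood apart. It had 10 or more reads for 6995 genes, against 9066 to 11523 in the other libraries. It also missed 31.47% of the genes common to the other libraries, followed by Control replicate 2 with 13.07% and by Mertk KO replicates 3 and 4 with 8.598% and 5.754%. Among the 22 expressed members, Ptdss1 knockdown replicate 1 was the highest library for 8 and the lowest for 8. That is 72.73% of the members, against 59.41% of all tested genes.

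Detection differed between the families. The Slc7a prefix had 16 genes with 8 expressed, Slc38a had 11 with 6, Slc1a had 7 with 2, Slc36a had 4 with 3, Slc43a had 3 with 2, and Slc3a had 2 with 1. No read in any library fell on 8 members, namely Slc1a6, Slc1a7, Slc7a10, Slc7a12, Slc7a13, Slc38a4, Slc38a5 and Slc38a11. A further 13 had reads but not enough to count as expressed: Slc1a1, Slc1a3, Slc1a4, Slc3a1, Slc7a3, Slc7a4, Slc7a9, Slc7a14, Slc7a15, Slc36a3, Slc38a3, Slc38a8 and Slc43a1. Slc3a1 and Slc7a9 are the heavy and light chain of the cystine carrier of kidney and gut, and had at most 5 and 2 reads in a library. The highest count among these 13 was 54 reads of Slc1a4, a neutral amino acid exchanger, in a single library. Just inside the limit were Slc1a2, a glutamate transporter, and Slc36a2, a proton-coupled carrier of small amino acids, each with 10 or more reads in 3 libraries. Just outside it were Slc1a3, Slc36a3 and Slc7a4, each with that many in 2 libraries. At the other end, 14 members had 10 or more reads in all 10 libraries. Slc36a1, Slc36a4, Slc38a7 and Slc38a10 fell short in 1 library each, and for all 4 that library was Ptdss1 knockdown replicate 1.

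Levels of different genes were compared per kilobase of exon. Slc3a2, the shared heavy chain, had the highest level, with a median over the 10 libraries of 1251 normalised reads per kilobase and a range from 858.7 to 1789. Slc7a2, the arginine carrier known as CAT2, came next with a median of 569.7 and a range from 69.04 to 936.0. Slc3a2 exceeded Slc7a2 in every library but Mertk KO replicate 3. Below them stood Slc38a2 at 202.8, Slc7a7 at 192.2 and Slc7a8 at 187.6 normalised reads per kilobase, whose ranges overlapped so that their order is not firm. Slc43a2, Slc1a5, Slc7a6os, Slc38a10 and Slc38a6 followed with medians from 121.3 down to 63.65. At the low end, Slc43a3 had a median of 8.83, Slc7a5 of 7.168, Slc1a2 of 0.07157 and Slc36a2 of 0. Taking the longest coding transcript as the length kept Slc3a2, Slc7a2 and Slc38a2 in the first 3 places and moved Slc7a6os from place 8 to place 4.

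**Figure D1:**
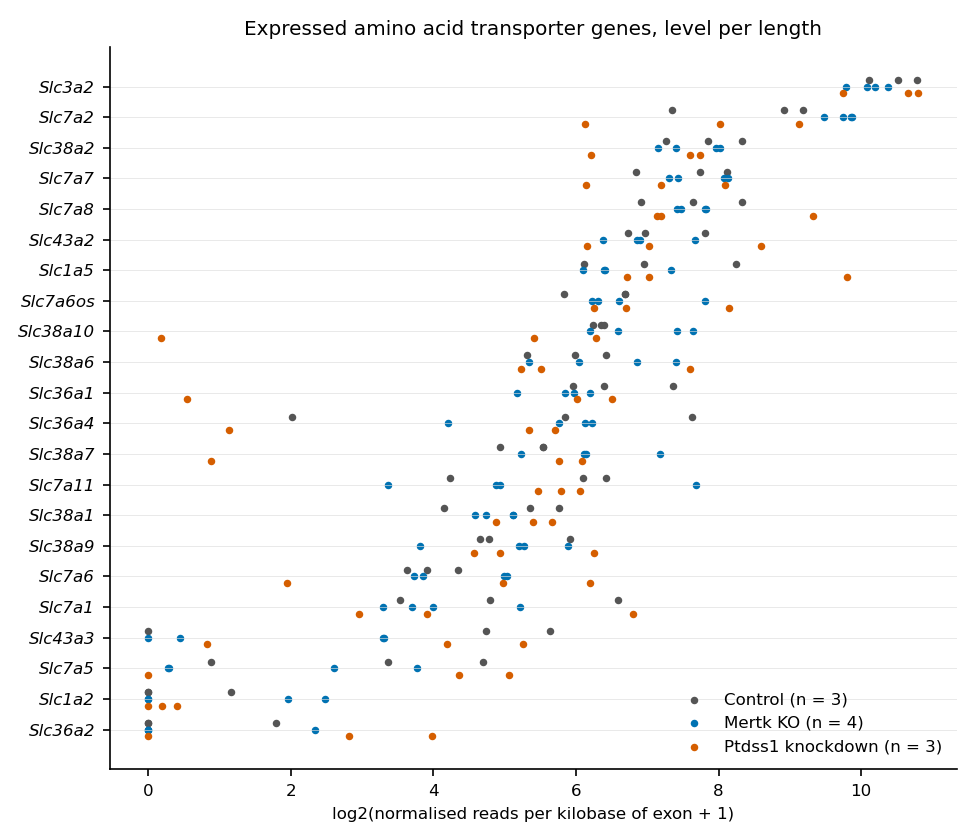
Level per length of the 22 expressed members in every library, in log2(normalised reads per kilobase of exon + 1), ordered by the median over libraries, with a point per library coloured by group. Slc3a2 and Slc7a2 lie at the top, and Slc1a2 and Slc36a2 at the bottom have libraries at 0.

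Next, the 3 groups were compared with limma over 11564 tested genes. No member changed past an adjusted p of 0.05 in any comparison. For Mertk KO against Control, 0 of 22 members passed, where 0.0173% of all tested genes did. An unadjusted p below 0.05 was reached by 1 member, Slc7a2, against 2.06% of all tested genes, and the libraries of the groups did not overlap for 1 member, again Slc7a2, against 5.62%. Of the 22 members 10 were higher and 12 lower in Mertk KO, with a median log2 difference of -0.09, beside 0.02 over all tested genes. Every member had an adjusted p of 1.0 there. A single member is 4.545% of the 22.

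For Ptdss1 knockdown against Control, 0 of 22 members passed, as did 0% of all tested genes. An unadjusted p below 0.05 was reached by 0 members, against 2.9% of all tested genes, and 0 members had groups that did not overlap, against 6.92%. The members were split into 11 higher and 11 lower, with a median difference of 0.02 beside -0.05 over all tested genes, and their smallest adjusted p was 0.841. For Mertk KO against Ptdss1 knockdown, 0 of 22 members and 0% of all tested genes passed. Slc7a2 and Slc38a10 had an unadjusted p below 0.05, 9.091% of the members against 3.73% of all tested genes, and Slc7a2 was the only 1 of 22 whose groups did not overlap, against 5.23%. Here 10 members were higher and 12 lower in Mertk KO, with a median difference of -0.24 beside 0.11 over all tested genes and a smallest adjusted p of 0.8049. Without Ptdss1 knockdown replicate 1 the split turned to 12 higher and 10 lower, with a median of 0.07 beside -0.11 over all tested genes. With limma-voom on the recovered reads 0 members passed in each comparison as well. The comparisons share groups, so they are not independent of each other.

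**Figure D2:**
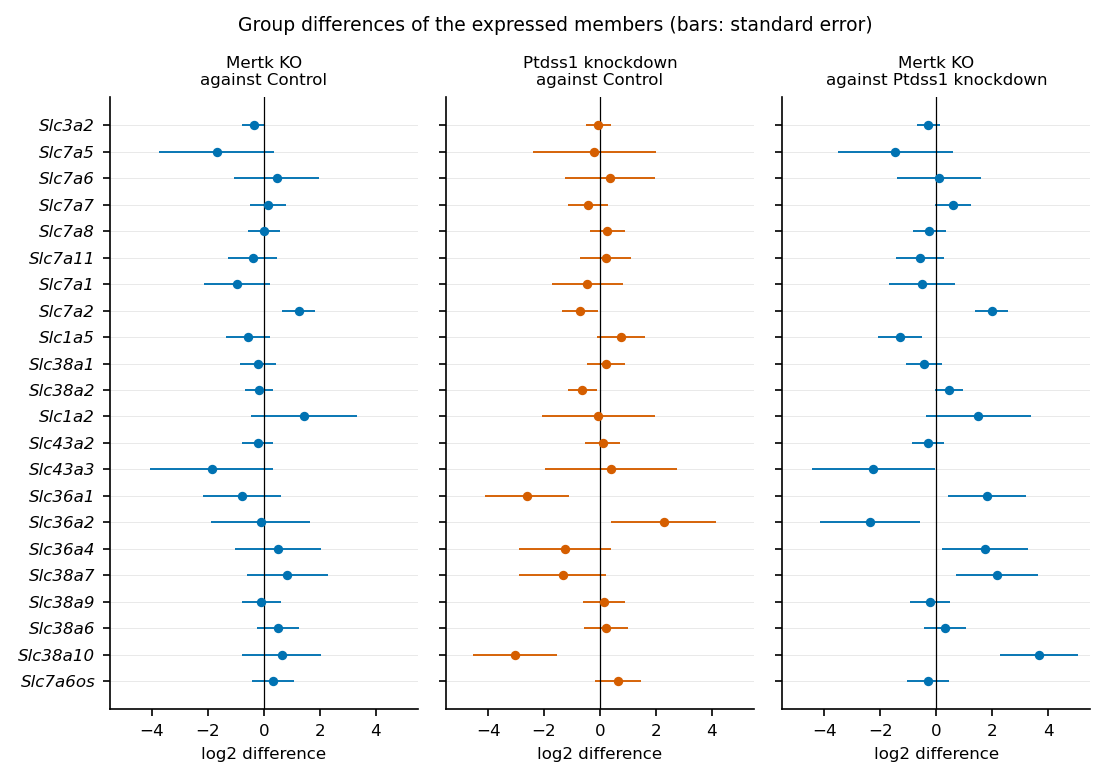
Log2 difference of each expressed member in the 3 comparisons, first group minus second, with points for the estimate and bars for its standard error, members ordered by role. Slc7a2 lies to the right of 0 in both comparisons of Mertk KO with a short bar, while the members with the longest bars are those with libraries near 0 reads.

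The arginine transporter Slc7a2 (ENSMUSG00000031596, chr8:40862396-40922308 in GRCm38) was the member whose Mertk KO libraries lay apart from both other groups. Its level was 13.06, 12.93, 13.06 and 12.66 in the Mertk KO libraries. In Control it was 10.53, 12.11 and 12.37, and in Ptdss1 knockdown 12.32, 9.30 and 11.20. All 4 Mertk KO libraries lay above all 6 others, and they differed little among themselves, with an SD of 0.19 against 1.0 in Control and 1.53 in Ptdss1 knockdown. The mean difference of Mertk KO from Control was 1.26 (SE 0.59, 95% interval 0.01 to 2.51), which did not pass the limma test (adjusted p = 1.0). Against Ptdss1 knockdown Mertk KO was higher by 1.98 (SE 0.59, 95% interval 0.73 to 3.23, adjusted p = 0.8049), and by unadjusted p it stood at place 19 of the 11564 tested genes. Between Ptdss1 knockdown and Control the difference was -0.72 (SE 0.64, 95% interval -2.06 to 0.61, adjusted p = 0.841).

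These sizes leaned on a few libraries. Without Control replicate 1, the lowest Control library, the difference of Mertk KO from Control was 0.69, and without Ptdss1 knockdown replicate 2 that from Ptdss1 knockdown was 1.16. Between Ptdss1 knockdown and Control the difference became 0.097 without Ptdss1 knockdown replicate 2 and -1.41 without replicate 1. Slc7a2 passed under 1 of 20 alternative settings, when limma weighted the libraries by their quality: the difference from Ptdss1 knockdown was then 2.25 with an adjusted p of 0.0264, within a range of 0.0264 to 0.9948 over the 20. In a bulk sample, fewer cells of a type and less RNA per cell cannot be told apart. The reads were also not separated by strand, and 635 bases of Slc7a2 exon overlap the non-coding gene Gm26584 on the opposite strand, so that reads of both cannot be told apart there. Slc1a2, Slc7a7, Slc38a9, Slc38a10 and Slc43a2 also have opposite-strand exon overlaps, from 182 to 922 bases, with a protein-coding partner in the case of Slc7a7.

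Summed levels of some markers of other cells differed between the same groups as Slc7a2. The summed level of 10 epithelial or tumour markers was 8.35 to 9.19 in Control, 10 to 11.41 in Mertk KO and 2.63 to 9.89 in Ptdss1 knockdown, so that it too was highest in all 4 Mertk KO libraries. Between 2 and 7 of the 10 had reads in a library. Cdh1, the adhesion protein E-cadherin, was at 8.29 to 8.75 in Control, 9.76 to 10.55 in Mertk KO and 2.42 to 9.45 in Ptdss1 knockdown. The keratin Krt8 ranged from 0 to 6.18 in Control and from 0.86 to 10.26 in Mertk KO, and the keratin Krt18 from 0 to 7.02 and from 0 to 9.02. Epcam and Krt19 were at 0 in every library of both groups and Cldn4 at 0 everywhere. Krt7 reached 3.64 in Control and was at 0 in Mertk KO, and Erbb3 reached 5.14 and 4.67. Of the 6 tested markers of this list, 3 were higher and 3 lower in Mertk KO than in Control, and 0 passed limma. The summed level of 6 NK cell markers ran the other way, at 10.70 to 11.72 in Control, 7.83 to 9.63 in Mertk KO and 9.92 to 11.08 in Ptdss1 knockdown, with reads for 1 to 6 of the 6 and reads of the defining marker Ncr1 in 1 library only. The ranges of the macrophage, fibroblast, endothelial, T cell, B cell, neutrophil, dendritic and erythroid lists overlapped between groups, though single libraries stood out in some. The dendritic sum was 12.95 in Mertk KO replicate 3, against 6.87 to 7.66 in Control. The fibroblast sum was 10.05 in Mertk KO replicate 4, against 4.31 to 5.88 in Control. The B cell sum was 9.27 in Ptdss1 knockdown replicate 2, against 0 to 5.23 in Control. Which cells the marker reads came from, and the part of other cells in the Slc7a2 levels, were not tested.

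Slc7a1, known as CAT1, is the arginine carrier found in most cell types. It read 6.93, 10.11 and 8.28 in Control, 7.43, 6.68, 8.70 and 7.12 in Mertk KO, and 10.32, 6.30 and 7.35 in Ptdss1 knockdown. Its groups overlapped widely, and its highest values came from Control replicate 2 and Ptdss1 knockdown replicate 1, the libraries that missed most genes. Per kilobase, the ratio of Slc7a2 to Slc7a1 was 62.59, 97.21, 25.98 and 59.4 in Mertk KO, 15.34, 5.046 and 21.56 in Control, and 5.078, 10.2 and 18.42 in Ptdss1 knockdown. Slc7a2 exceeded Slc7a1 in every library, and the ratio was higher in each Mertk KO library than in any other. This ratio was chosen after its values had been seen and was not tested.

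**Figure D3:**
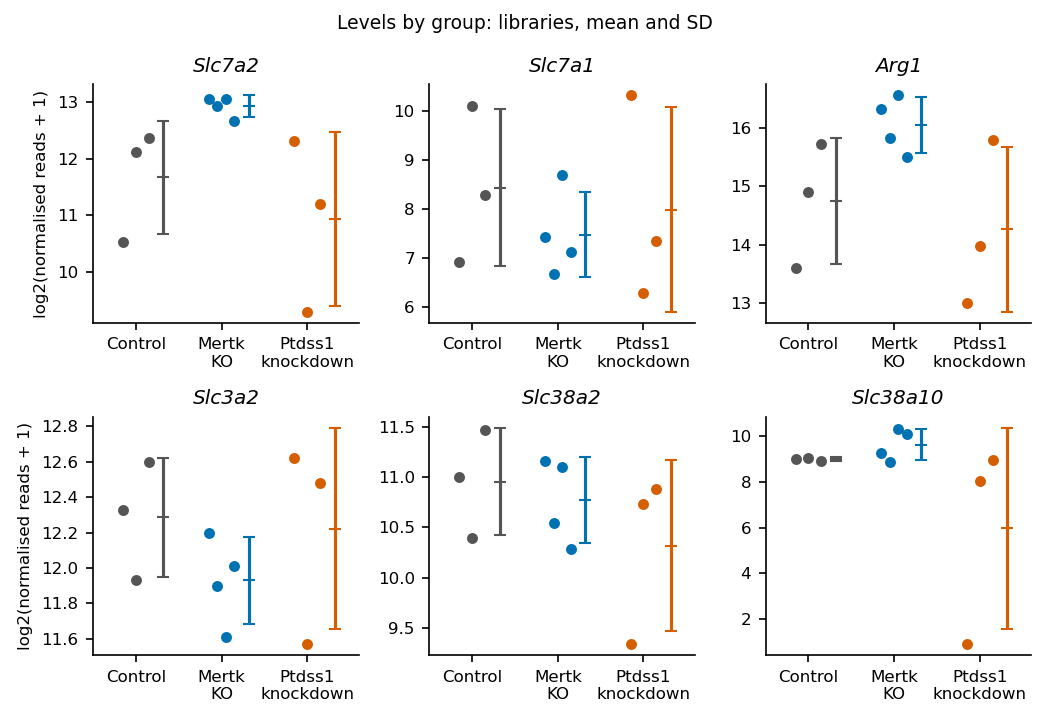
Levels of Slc7a2, Slc7a1, the arginase gene Arg1, Slc3a2, Slc38a2 and Slc38a10 in each library, in log2(normalised reads + 1), with 3, 4 and 3 libraries per group and the mean and SD beside them. Slc7a2 is the panel in which the 4 Mertk KO points (12.66 to 13.06) clear both other groups, and in the Slc38a10 panel a single Ptdss1 knockdown library lies at 0.90.

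The heavy chain Slc3a2 (chr19:8706882-8723369) was the steadiest of the members. It was at 12.33, 11.93 and 12.60 in Control, 12.20, 11.90, 11.61 and 12.01 in Mertk KO, and 12.62, 11.57 and 12.48 in Ptdss1 knockdown. The whole range was 1.06, against a median range of 3.88 over the expressed members and 5.26 over all tested genes. Mertk KO differed from Control by -0.35 (SE 0.41, 95% interval -1.21 to 0.50, adjusted p = 1.0 by limma). Ptdss1 knockdown differed from Control by -0.06 (SE 0.44) and Mertk KO from Ptdss1 knockdown by -0.29 (SE 0.41). Per kilobase, Slc3a2 exceeded the sum of its 5 expressed light chains in every library, by a ratio from 1.657 to 5.459.

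Among the light chains, Slc7a7 and Slc7a8 made up most of the signal. Slc7a7, or y+LAT1, releases arginine and lysine in exchange for neutral amino acids. It was at 9.85, 9.47 and 8.57 in Control, 9.03, 9.15, 9.80 and 9.86 in Mertk KO, and 7.86, 8.92 and 9.81 in Ptdss1 knockdown. Slc7a8, or LAT2, exchanges neutral amino acids of large and small size. It was at 9.96, 10.64 and 9.22 in Control, 10.14, 9.79, 10.13 and 9.74 in Mertk KO, and 11.65, 9.45 and 9.51 in Ptdss1 knockdown. Both overlapped between all groups, and for both the value farthest from the rest came from Ptdss1 knockdown replicate 1, in opposite directions. Of the summed light chain level per kilobase, Slc7a7 made up 9.237% to 56.82% and Slc7a8 27.39% to 84.69%, each reaching its extreme of 9.237% and 84.69% in that library. The partner that overlaps 232 bases of Slc7a7 exon is Oxa1l, a protein-coding gene.

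Slc7a11, the cystine importer xCT that feeds glutathione synthesis, had a range of 4.44 over the 10 libraries. It was at 7.97, 10.20 and 9.88 in Control, 11.47, 8.69, 7.03 and 8.63 in Mertk KO, and 9.23, 9.57 and 9.84 in Ptdss1 knockdown. Both the highest and the lowest library were Mertk KO, with an SD of 1.85 in that group, 1.21 in Control and 0.3 in Ptdss1 knockdown. Its share of the summed light chains ran from 1.743% in Mertk KO replicate 3 to 33.36% in Mertk KO replicate 1.

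The remaining light chains were low. Slc7a6, or y+LAT2, has the same exchange activity as Slc7a7 and was at 6.47, 6.02 and 5.73 in Control, 5.83, 7.15, 7.19 and 5.97 in Mertk KO, and 3.81, 8.38 and 7.14 in Ptdss1 knockdown. Slc7a5, or LAT1, imports leucine and is the light chain known from proliferating and activated cells. It was at 6.55, 2.05 and 5.14 in Control, 5.58, 4.31, 0.86 and 0.85 in Mertk KO, and 0, 6.92 and 6.19 in Ptdss1 knockdown. The 4 lowest Slc7a5 values came from the 4 libraries that missed most common genes, Ptdss1 knockdown replicate 1, Mertk KO replicates 3 and 4 and Control replicate 2. At levels of about a read, such values show that Slc7a5 was not detectable there, not that it was absent.

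**Figure D4:**
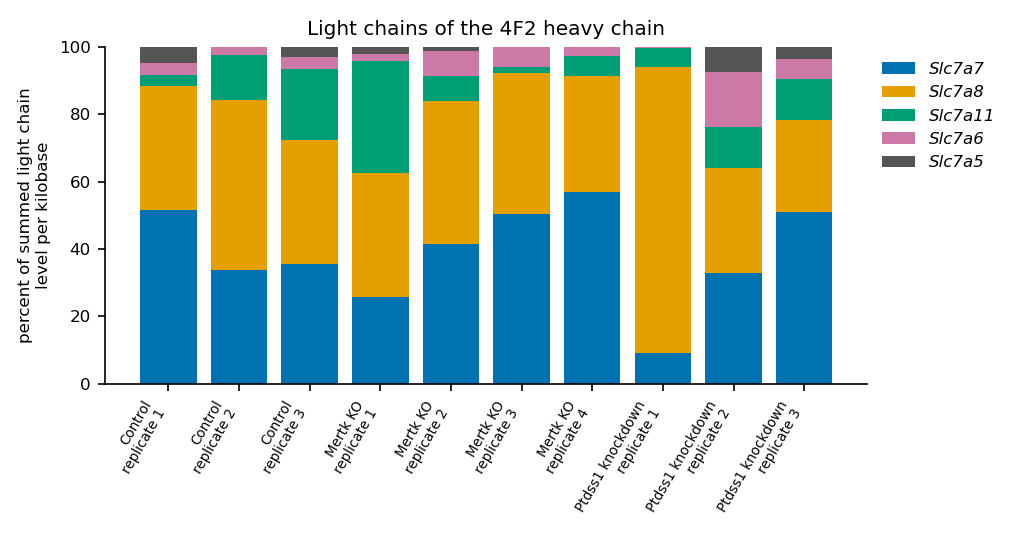
Share of each of the 5 expressed light chains in their summed level per kilobase, in percent, with a bar per library. Slc7a7 and Slc7a8 fill most of every bar, Slc7a8 reaches 84.69% in Ptdss1 knockdown replicate 1, and Slc7a11 reaches 33.36% in Mertk KO replicate 1.

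Promoter sequence was read for these light chains because Slc7a11 is a known target of the amino acid starvation factor ATF4, which binds a composite element with the core TGATGNAA. RefSeq windows of equal length on GRCm38.p6, reaching from upstream of a start to shortly after it, were at hand for 16 of the 22 expressed members, in 23 windows. Searched on both strands, the core was present in 2 of the 16 genes, Slc7a11 and Slc7a7, against 4.51% of the 27025 genes with a window and 3.97% of all 32851 windows. The stretches that hold it are shown 5′ to 3′ on the strand of the gene, with each match in capitals. That of Slc7a11 is chr3:50443623-50443709 and that of Slc7a7 chr14:54418048-54418115, both on the minus strand.
Slc7a11: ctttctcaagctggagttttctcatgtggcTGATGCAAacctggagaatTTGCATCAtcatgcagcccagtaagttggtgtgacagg
Slc7a7: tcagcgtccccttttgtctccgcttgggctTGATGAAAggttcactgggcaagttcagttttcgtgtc
In Slc7a11 the matches start 66 and 47 bases before the start site, 1 on each strand. In Slc7a7 the match shown lies 141 bases before a start site. A further match lies 1 base before the same start and 243 bases before another start of the gene. The antioxidant core TGACNNNGC, bound by NRF2 with small MAF proteins, was found for Slc7a1, Slc7a6, Slc36a1 and Slc38a2, 4 of the 16 genes, against 14% of all genes with a window. The STAT6 half-site pair with its usual spacing was found for Slc43a2, 1 of the 16, against 8.01%. No expressed member held matches of more than 1 of the 3 motifs. A match describes letters and not a bound site.

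Glutamine and other small neutral amino acids enter through Slc1a5, Slc38a1 and Slc38a2. Slc38a2, or SNAT2, is the sodium-coupled carrier that cells raise when amino acids run short. Its level was 11.00, 10.40 and 11.47 in Control, 11.16, 10.54, 11.10 and 10.29 in Mertk KO, and 9.34, 10.73 and 10.88 in Ptdss1 knockdown. These values overlapped between groups, and the lowest was again Ptdss1 knockdown replicate 1. Slc1a5, or ASCT2, exchanges glutamine against other neutral amino acids and was at 9.01, 10.31 and 8.16 in Control, 8.45, 8.45, 9.39 and 8.14 in Mertk KO, and 11.87, 9.07 and 8.77 in Ptdss1 knockdown. Its difference of Ptdss1 knockdown from Control was 0.75 (SE 0.85) and became -0.24 without Ptdss1 knockdown replicate 1, so its direction rested on that library. Mertk KO differed from Control by -0.55 (SE 0.79), which became 0.025 without Control replicate 2, and from Ptdss1 knockdown by -1.29 (SE 0.79), which became -0.31 without Ptdss1 knockdown replicate 1. Slc38a1, the related carrier SNAT1, stayed between 8.18 and 9.85 over the 10 libraries. Slc38a1 and Slc38a2 are neighbours, 44.5 kb apart on chromosome 15, yet Ptdss1 knockdown replicate 1 was among the higher libraries for Slc38a1 and the lowest for Slc38a2.

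The glutamate transporter Slc1a2 had 10 or more reads in 3 libraries only. It was at 4.11, 0 and 0 in Control, 5.93, 0, 5.29 and 0 in Mertk KO, and 0, 1.53 and 2.40 in Ptdss1 knockdown. Libraries with and without reads occurred in every group.

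Of the SLC43 family, Slc43a2, the uniporter LAT4 for leucine and other large neutral amino acids, was well expressed. It was at 10.04, 10.29 and 11.14 in Control, 10.99, 10.21, 10.17 and 9.69 in Mertk KO, and 11.92, 10.35 and 9.47 in Ptdss1 knockdown. The highest and the lowest value both belonged to Ptdss1 knockdown. Slc43a3, which carries purine bases and not amino acids, was at 7.77, 0 and 6.86 in Control, 5.34, 5.33, 1.39 and 0 in Mertk KO, and 2.16, 7.38 and 6.29 in Ptdss1 knockdown. As for Slc7a5, its 4 lowest values came from the 4 libraries that missed most common genes.

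The carriers known from lysosomes were Slc36a1, Slc36a4, Slc38a7 and the arginine sensor Slc38a9. Slc36a1, or PAT1, exports small neutral amino acids with protons. It was at 8.87, 9.84 and 8.44 in Control, 8.45, 8.32, 8.67 and 7.63 in Mertk KO, and 1.85, 8.98 and 8.49 in Ptdss1 knockdown. Apart from Ptdss1 knockdown replicate 1, the libraries of the 3 groups overlapped. Ptdss1 knockdown differed from Control by -2.61 (SE 1.5, adjusted p = 0.841 by limma). This became -0.31 without Ptdss1 knockdown replicate 1, and 0.088 without Control replicate 2 as well. Slc38a7, or SNAT7, exports glutamine and asparagine from lysosomes and was at 7.57, 6.95 and 7.57 in Control, 8.15, 8.17, 9.22 and 7.25 in Mertk KO, and 2.16, 7.79 and 8.12 in Ptdss1 knockdown. Its difference of Ptdss1 knockdown from Control was -1.34 (SE 1.55) with all libraries and 0.60 without Ptdss1 knockdown replicate 1. Mertk KO differed from Control by 0.84 (SE 1.45). Slc36a4, or PAT4, ranged from 3.14 to 10.34, low in Ptdss1 knockdown replicate 1 and, at 4.38, in Control replicate 2. Slc38a9 had reads in every library and ranged from 7.77 to 10.29 with overlapping groups. Its messenger therefore did not share the gap that the other 3 showed in Ptdss1 knockdown replicate 1.

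Slc38a10 and Slc38a6 are SLC38 members whose transport roles are less settled. Slc38a10 was at 9.02, 9.06 and 8.91 in Control, 9.26, 8.87, 10.32 and 10.09 in Mertk KO, and 0.90, 8.06 and 8.95 in Ptdss1 knockdown. The value of 0.90 is 1 read. Mertk KO was above Ptdss1 knockdown by 3.66 (SE 1.40, adjusted p = 0.8049 by limma), and by 1.13 once Ptdss1 knockdown replicate 1 was left out. Ptdss1 knockdown differed from Control by -3.03 (SE 1.5, adjusted p = 0.841), which was -0.49 without that library. Slc38a6 was at 8.24, 8.92 and 9.37 in Control, 9.81, 8.99, 10.35 and 8.27 in Mertk KO, and 10.55, 8.44 and 8.16 in Ptdss1 knockdown, with all groups overlapping.

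Slc7a6os lies on the opposite strand, tail to tail with Slc7a6, with 2.01 kb between their ends. It was at 8.75, 8.75 and 7.89 in Control, 8.29, 8.66, 8.38 and 9.89 in Mertk KO, and 10.22, 8.32 and 8.78 in Ptdss1 knockdown. The neighbours did not follow each other: Ptdss1 knockdown replicate 1 was the highest library for Slc7a6os and the lowest for Slc7a6.

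**Figure D5:**
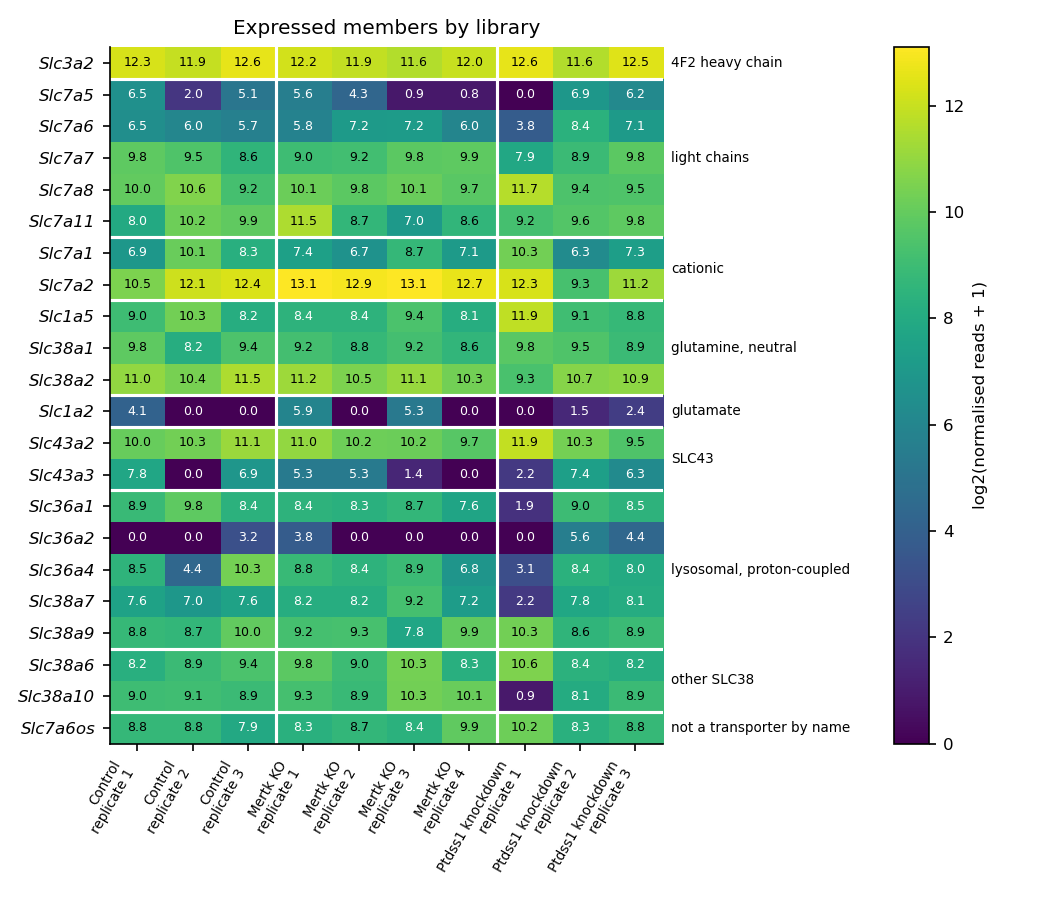
Level of each expressed member (rows, grouped by role) in each library (columns, grouped by condition) in log2(normalised reads + 1), with the value printed in each cell. The column of Ptdss1 knockdown replicate 1 holds values near 0 for Slc7a5, Slc36a1, Slc38a7 and Slc38a10, and the row of Slc7a2 is brightest in the 4 Mertk KO columns.

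Genes that use, sense or answer to amino acids were taken from 4 further lists, and 0 of their tested genes passed limma in any comparison. The list of amino acid enzymes had 31 tested genes. Of these 17 were higher and 14 lower in Mertk KO than in Control, with a median difference of 0.00. Arg1, Kmo and Sat1, 3 of the 31, had an unadjusted p below 0.05, against 2.06% of all tested genes. In Ptdss1 knockdown 17 were above and 14 below Control, with a median of 0.29 beside -0.05 over all tested genes. Kmo, Gclc and Srm, 3 of the 31, had an unadjusted p below 0.05 there, against 2.9%. Without Control replicate 2 and Ptdss1 knockdown replicate 1 that median was -0.04 beside 0.02. Arg1, the arginase that uses the arginine Slc7a2 brings in, was at 16.33, 15.84, 16.57 and 15.51 in Mertk KO, 13.60, 14.91 and 15.74 in Control, and 13, 13.98 and 15.80 in Ptdss1 knockdown. It leaned the same way as Slc7a2 but overlapped both other groups, with a difference of 1.31 from Control (SE 0.58, adjusted p = 1.0) and of 1.80 from Ptdss1 knockdown (SE 0.58, adjusted p = 0.8049). Kmo, an enzyme of tryptophan breakdown, was at 6.45, 3.43, 9.33 and 3.41 in Mertk KO and at 0, 1.03 and 0 in Control, groups that did not overlap (difference 5.31, SE 1.82, adjusted p = 1.0). The values of 3.43 and 3.41 are 12 reads each. Kmo was at 5.12, 7.10 and 6.24 in Ptdss1 knockdown, also above every Control library (difference 5.81, SE 1.94, adjusted p = 0.841 by limma). Over all tested genes, 5.62% did not overlap between Mertk KO and Control, and 6.92% between Ptdss1 knockdown and Control. Kmo was therefore not particular to Mertk KO. Sat1, which acetylates polyamines made from ornithine, differed in Mertk KO from Control by -1.16 (SE 0.45, adjusted p = 1.0). In Mertk KO against Ptdss1 knockdown, Arg1, Ass1, Glud1 and Il4i1, 4 of the 31, had an unadjusted p below 0.05, against 3.73% of all tested genes. Ass1, which rebuilds arginine from citrulline, was at 9.47, 7.78, 8.99 and 8.81 in Mertk KO. In Ptdss1 knockdown it was at 12.49, 10 and 9.61, so these groups did not overlap (adjusted p = 0.8049 by limma). Nor did they for Glud1 and Il4i1, both lower in Mertk KO, against 5.23% of all tested genes without overlap.

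The stress and starvation list, which holds ATF4, its targets and the tRNA synthetases, had 34 tested genes. In Ptdss1 knockdown 27 were above and 7 below Control, with a median difference of 0.52 beside -0.05 over all tested genes. Trib3, Aars, Gars and Yars, 4 of the 34, had an unadjusted p below 0.05, against 2.9% of all tested genes. Trib3, an inhibitory pseudokinase induced by ATF4, was at 10.53, 5.77 and 5.21 in Ptdss1 knockdown and at 2.09, 0 and 1.30 in Control (adjusted p = 0.841), with its top value in Ptdss1 knockdown replicate 1. Without that library 23 were above and 11 below Control, with a median of 0.35 beside 0.12 over all tested genes, and without Control replicate 2 as well the median was 0.21 beside 0.02. Control replicate 2 was the lowest Control library for Aars (5.87), Gars (5.49) and Yars (0), against 8.44 and 8.80, 10.08 and 9.17, and 7.90 and 7.69 in the other Control libraries. In Mertk KO 19 were above and 15 below Control, with a median of 0.10. Psat1, 1 of the 34, had an unadjusted p below 0.05 there, against 2.06% of all tested genes. It differed by -4.51 (SE 2.08), with Mertk KO replicates 3 and 4 at 0. The list of lysosomal amino acid sensing, with mTORC1, its GTPases and their regulators, had 41 tested genes, of which 20 were above and 21 below Control in Mertk KO (median -0.04) and 22 above and 19 below in Ptdss1 knockdown (median 0.14). Rraga and Rragd, GTPases that hold mTORC1 on the lysosome, had an unadjusted p below 0.05 in Ptdss1 knockdown against Control. They are 2 of the 41, against 2.9% of all tested genes. Each had its highest value in Ptdss1 knockdown replicate 1, and Rraga had its lowest, 1.03, in Control replicate 2. Without the former library 19 of the list were above and 22 below Control, with a median of -0.05, and without both 14 were above and 27 below, with a median of -0.20. Of 15 other amino acid and peptide transporters tested, 10 were above and 5 below Control in both groups, with medians of 0.48 in Mertk KO and 0.21 in Ptdss1 knockdown, beside 0.02 and -0.05 over all tested genes. Without Control replicate 2 and Ptdss1 knockdown replicate 1 the split in Mertk KO was 8 above and 7 below, with a median of 0.04 beside -0.08 over all tested genes. In Ptdss1 knockdown it was then 11 above and 4 below, with a median of 0.24 beside 0.02. With all libraries, Slc15a2 and Slc25a22, 2 of the 15, had an unadjusted p below 0.05 in Ptdss1 knockdown against Control, against 2.9% of all tested genes. Both were highest in Ptdss1 knockdown replicate 1 and at 0 in Control replicate 2.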

How the data were processed

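Gene expression was measured by RNA sequencing of 10 libraries, which the labels place in Control (3), Mertk KO (4) and Ptdss1 knockdown (3). Per the labels' protocols, cDNA was made with a low-input kit, amplified by 16 PCR cycles and read in 75 cycles, and the kit does not mark strand. Per the submitters' processing notes STAR, RSEM and the mm10 build were used. For their versions, the annotation and the normalisation, nothing is given in the sources used here. The authors deposited 1 table per library with log2 values: undoing log2(value + 1) gave whole reads divided by a size factor, within 0.01 of a read, for 100% of values.

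The deposited log2 values of 11564 genes with at least 10 reads in 3 libraries were fitted with limma-trend (limma 3.58.1, R 4.3.3), robust moderation, a mean per group and no covariate. Tests were two-sided, with Benjamini-Hochberg adjustment over all tested genes and a threshold of 0.05. The script was tested on simulated data. All differences are of log2(normalised reads + 1), which makes changes of low genes look smaller. Levels between genes were divided by exon length from GENCODE M21, whose assembly GRCm38 is also called mm10 and in which all 21938 IDs were found. Promoter sequences are from RefSeq.

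Members given library by library were those with an unadjusted p below 0.05, those whose groups did not overlap, the 10 highest per kilobase, and Slc3a2 with its light chains. Slc7a1, Slc1a2, Slc36a1, Slc38a7 and Slc43a3 were added after their values were seen. The members, lists, rule and alternatives were chosen with earlier results of these data known. Alternatives were other size factors, filters, a larger pseudocount, limma-voom, no robust moderation, only the compared groups, library weights, leaving out each library, and leaving out Control replicate 2 with Ptdss1 knockdown replicate 1. PCR reads without molecular identifiers are not independent molecules.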

Additional observations from a re-analysis of the deposited data

Results flagged for a closer look

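The level of Slc36a2, a proton-coupled carrier of small amino acids, was 3.83 in Mertk KO replicate 1 and 0 in the other 3 Mertk KO libraries, on the log2(normalised reads + 1) scale. The result is listed because this library lay far from the rest of its group. The value is 9 reads, below the limit of 10 for expression. With the other 3 libraries at 0, any read at all would have set it apart, so its size is not evidence of a difference. Slc36a2 was also at 3.18 in Control replicate 3 and at 5.61 and 4.36 in Ptdss1 knockdown replicates 2 and 3.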

How the results depend on the processing

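Over 20 alternatives no member passed in Mertk KO against Control or in Ptdss1 knockdown against Control, and 1 member, Slc7a2, passed in Mertk KO against Ptdss1 knockdown with library weights (2.252, adjusted p = 0.0264). The median differences of the members moved by less than the spread between libraries in each of the 20, but none kept its sign. That of Ptdss1 knockdown against Control, 0.016 as reported, became -0.05 without Ptdss1 knockdown replicate 1. It was also negative with upper-quartile scaling (-0.104), no filter (-0.061) and library weights (-0.26). Leaving out Control replicate 1 (-0.094), Control replicate 2 (-0.246) or Ptdss1 knockdown replicate 3 (-0.13) turned it as well. That of Mertk KO against Ptdss1 knockdown became 0.07 without Ptdss1 knockdown replicate 1 and 0.024 with upper-quartile scaling. That of Mertk KO against Control became 0.006 with library weights, 0.054 without Control replicate 3 and 0.048 when Mertk KO replicate 3 was left out. Upper-quartile scaling shifted the median of all genes to -0.23 in Ptdss1 knockdown against Control and to 0.33 in Mertk KO against Ptdss1 knockdown. The genes called in Mertk KO against Control, 2 as reported, were 0 with upper-quartile scaling, no filter or a filter of 50 reads, 1 without robust moderation, 25 with library weights and 0 to 4 when a library was left out. With library weights 2 were called in Ptdss1 knockdown against Control and 35 in Mertk KO against Ptdss1 knockdown, and 1 in the latter without Control replicate 2 and Ptdss1 knockdown replicate 1. Without these libraries Slc1a5 turned to 0.025 in Mertk KO against Control, Slc36a1 to 0.088 and Slc38a7 to 0.390 in Ptdss1 knockdown against Control, and Slc36a1 to -0.472 in Mertk KO against Ptdss1 knockdown. Library weights turned Slc38a7 to 0.440 and Slc36a1 to -0.215 in these comparisons. The cause of these turns was not tested. Leaving out 1 library at a time gave ranges that crossed 0 for Slc1a5 in Mertk KO against Control (-1.048 to 0.025), for Slc3a2 (-0.262 to 0.267), Slc1a5 (-0.236 to 1.32), Slc38a7 (-2.384 to 0.597) and Slc7a2 (-1.413 to 0.097) in Ptdss1 knockdown against Control, and for Slc36a1 in Mertk KO against Ptdss1 knockdown (-0.472 to 3.097). No paired analysis was possible because the replicate numbers follow accession order and only name libraries, and the labels tie none of them to a batch or mouse. Slc1a2, Slc36a2, Slc43a3 and Slc7a5 rest on few reads in several libraries, and their low values did not follow depth: Slc7a5 had 32 and Slc43a3 27 reads in the shallowest library, Mertk KO replicate 1.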
